A study of Saccharomyces cerevisiae with 4 samples.

Results

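SRG1 is a noncoding RNA of the yeast Saccharomyces cerevisiae that is transcribed across the promoter of SER3, and SER3 and SER33 encode the paralogous 3-phosphoglycerate dehydrogenases that start the synthesis of serine. These 3 genes were taken by their identifiers (SRG1, YER081W and YIL074C) from a table of 7126 rows, and their counts were compared between 2 guides of a CRISPR interference system. Such a system blocks transcription where a guide brings a catalytically dead Cas9 protein. All 4 libraries were poly(A) RNA of strain BY4741, a haploid laboratory strain, grown from an optical density of 0.1 to 0.4 on glucose in synthetic medium that lacked leucine and uracil. In the 2 scrambled libraries (A and B) the guide had a scrambled sequence, and in the 2 +116 libraries (A and B) it was +116, a guide that inhibits the GAL10 noncoding RNA. Neither the promoter that drives the Cas9 gene nor any serine in the medium is given in the labels. They do not say that A and B were separate cultures either, so the p-values measure the spread between these libraries, which may be technical.

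Repression of SER3 is a textbook case of control by the act of transcription. When serine is at hand, the activator Cha4, with the SAGA and Swi/Snf complexes, is known to switch on SRG1, and RNA polymerase II then runs across the SER3 promoter, where factors such as Spt6 and Spt16 keep nucleosomes in its wake and so keep activators of SER3 away. SER33 has no such transcript described at its promoter, and the same Cha4 activates CHA1, the gene of the serine deaminase, when serine is present. The GAL10 noncoding RNA is another transcript that crosses yeast promoters, and the comparison of the guides shows what these transcripts of the SER pathway did when it was inhibited.

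In the R64 reference of RefSeq, SRG1 (551 bp) and SER3 (1410 bp) lie on the same strand of chromosome V and share 77 bases, so that base 475 of SRG1 is the first base of the SER3 start codon. SER33, also 1410 bp long, lies on chromosome IX. The labels name no genome build, so coordinates are left out, and the sequences are those of R64. The shared bases are shown because a read from them fits both SRG1 and SER3, and beside them the same stretch of SER33, in each case on the coding strand from the start codon, with capitals where SER3 and SER33 differ:

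SER3 and SRG1: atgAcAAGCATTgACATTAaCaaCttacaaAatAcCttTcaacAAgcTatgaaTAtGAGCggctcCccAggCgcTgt

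SER33: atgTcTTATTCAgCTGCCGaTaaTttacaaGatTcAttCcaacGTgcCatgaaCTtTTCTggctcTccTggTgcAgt

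In this stretch 44 of 77 bases were identical. Over the whole coding sequence 1162 of 1410 bases (82.4%) were, with no gap in the alignment. The longest identical run was 56 bases, from base 706 to base 761, and it is shown with 10 bases on either side, again with capitals where the genes differ, because reads from it could come from either gene:

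SER3: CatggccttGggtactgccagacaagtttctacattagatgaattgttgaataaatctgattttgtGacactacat

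SER33: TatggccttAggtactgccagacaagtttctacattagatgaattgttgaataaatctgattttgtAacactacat

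Of the 1361 windows of 50 bases in SER3, 11 were also found in SER33, so the paralogs could be told apart over most of their length. The longest run that the part of SRG1 outside SER3 shared with SER33 was 11 bases. SRG1 and SER3 share a strand, so a stranded library does not separate them. Of 43 reading frames that R64 places wholly inside another on the same strand, with an outer gene of at least 20 normalized reads, 1 had reads, whereas all 9 nested on the opposite strand had reads. Reads of the 77 shared bases may thus be missing from both SRG1 and SER3, which was not tested. A transcript that began at SRG1 and ran on into SER3 would add to the SER3 count.

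**Figure D1:**
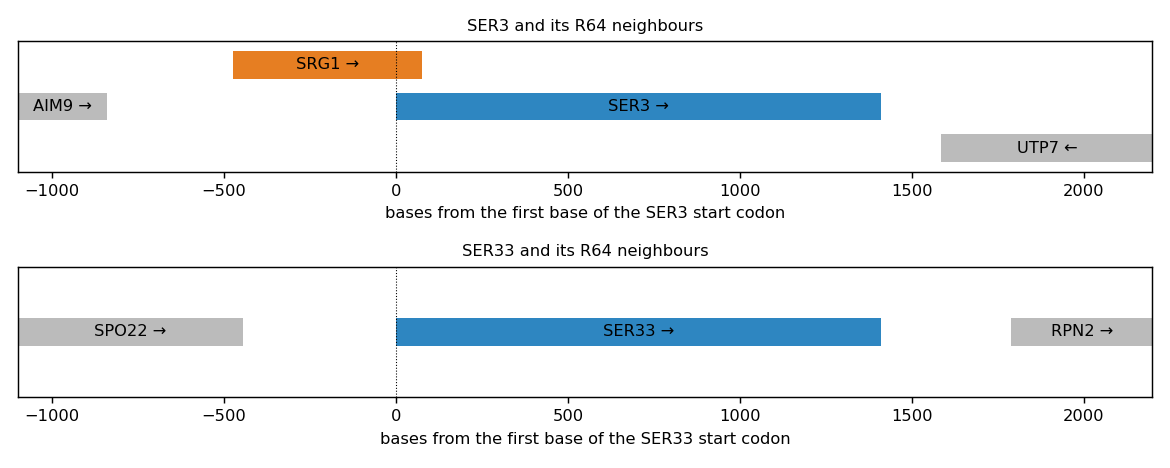
Map of SER3 (top) and SER33 (bottom) with the flanking genes in R64, in bases from the first base of the start codon, with arrows for the direction of transcription relative to the named gene. SRG1 covers the promoter of SER3 and ends inside it after 77 shared bases, whereas the interval before SER33 carries no annotated transcript.

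Between 34215480 and 40628383 reads per library were assigned to genes, and the deposited values were these counts divided by 1 size factor per library, here called normalized reads. GAL1, which lies on the strand of the GAL10 noncoding RNA and checks the labels, had 410.6 and 468.9 normalized reads in scrambled A and B and 133.0 and 115.7 in +116 A and B (log2 fold −1.81, SE 0.118, limma adjusted p = 3.7e-06). Folds are +116 against scrambled on the log2(value + 1) scale, from a limma fit over 6277 genes with Benjamini-Hochberg adjustment over all of them. At an adjusted p of 0.05, 53 genes (0.844%) were called, 32 of them higher (0.51%) and 21 lower (0.335%) with +116.

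SRG1 was present in all 4 libraries, and its level was not called different between the guides. It had 446.8 normalized reads in scrambled A, 470.0 in scrambled B, 411.0 in +116 A and 482.7 in +116 B. The +116 libraries were thus the lowest and the highest of the 4, with the scrambled libraries between them, and the groups overlapped. The scrambled mean was 458.4 ± 16.4 and the +116 mean 446.9 ± 50.8 normalized reads (SD, n = 2). Their log2 fold was −0.041 (SE 0.0954; limma adjusted p = 0.834). The 95% interval of the difference ran from −0.25 to 0.16, or from 0.843-fold to 1.12-fold. The spread within the scrambled pair was below the 21.4 normalized reads that counting alone gives for this number of reads, and that of the +116 pair was 2.40 times its counting SD. Exact Poisson intervals, which cover counting error only, were 372.2 to 452.7 for +116 A and 440.5 to 527.9 for +116 B, so they overlapped.

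SER3, which SRG1 transcription represses, was not called different between the guides. It had 4559 normalized reads in scrambled A, 5147 in scrambled B, 5753 in +116 A and 4937 in +116 B. The value of +116 B lay between those of the scrambled libraries, and the groups overlapped. The library with the least SRG1, +116 A, had the most SER3, but scrambled A, with the next lowest SRG1, had the least SER3. The scrambled mean was 4853 ± 416.0 and the +116 mean 5345 ± 577.2 normalized reads (SD, n = 2). Their log2 fold was 0.14 (SE 0.0726; 95% interval −0.019 to 0.29, or 0.987-fold to 1.23-fold), and the gene was not called (limma adjusted p = 0.289). The spreads within the pairs were 5.95 and 7.89 times the counting SD, so they exceeded counting error. The call depended on which +116 library was used. Without +116 B the log2 fold was 0.25 (limma adjusted p = 0.0129), in a fit that assumes that the lone +116 library varies as the others do and that called 279 of 6277 genes, and without +116 A it was 0.027 (0.874).

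SER33, the paralog of SER3, had the narrowest range over the libraries of the 3 genes. It had 4386 and 4370 normalized reads in scrambled A and B and 4542 and 4337 in +116 A and B. Again the +116 libraries were the highest and the lowest. The scrambled mean was 4378 ± 12.0 and the +116 mean 4439 ± 144.9 normalized reads (SD, n = 2). Their log2 fold was 0.020 (SE 0.0507; 95% interval −0.089 to 0.13; limma adjusted p = 0.850). The highest library was 1.05-fold above the lowest, against 1.26-fold for SER3 and 1.17-fold for SRG1. The SD of the scrambled pair of SER33 was 0.18 times its counting SD, and that of the +116 pair 2.17 times. Of 5528 tested genes with a mean of at least 100 normalized reads, 8.05% had a wider range over the libraries than SER3, 23.9% a wider one than SRG1 and 91.1% a wider one than SER33. These genes were not matched for level, and SRG1 has far fewer reads than the other members, which widens its range by counting alone.

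**Figure D2:**
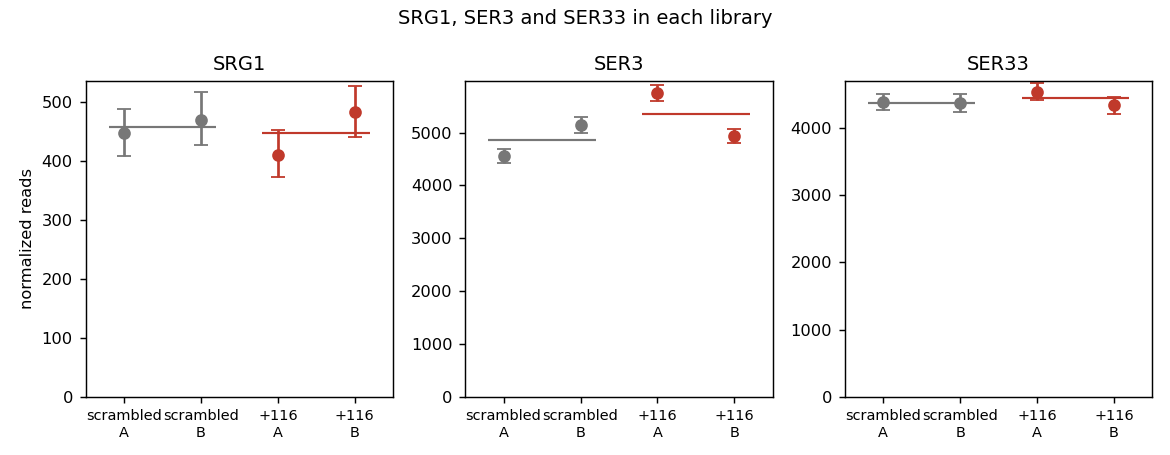
Normalized reads of SRG1, SER3 and SER33 in each of the 4 libraries (grey, scrambled guide; red, +116 guide), with vertical axes from 0, exact 95% Poisson intervals as bars and group means as horizontal lines. In +116 A, SRG1 is at its lowest (411.0) and SER3 at its highest (5753), and the groups overlap for all 3 genes.

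None of the 3 genes was called by limma, against 0.844% of all tested genes, and none had an unadjusted p under 0.05 (21.8% of all genes did, 11.5% as higher and 10.3% as lower). SER3 and SER33 had log2 folds above 0, as did 50.5% of all genes. EdgeR's quasi-likelihood test on the recovered reads, which called 2.64% of all genes, called none of them either (adjusted p = 0.869, 0.261 and 0.859 for SRG1, SER3 and SER33), and DESeq2, which called 5.56% of the 3235 genes it gave an adjusted p, called neither SER3 (0.348) nor SER33 (0.896) and gave no adjusted p for SRG1. At the SE of each gene, a log2 fold of 0.44 for SRG1, 0.34 for SER3 and 0.24 for SER33 would have been needed to reach the p of the last gene called. These are cutoffs on the observed fold with 2 libraries per guide, and a fold below them was not called. The power to detect a true difference was not computed. In bulk RNA, fewer cells that express a gene and less RNA per cell cannot be told apart. Short genes had lower folds across the table, and SRG1 is short. The median log2 fold was −0.083 over 291 other genes within 10% of its length and 0.014 over 675 genes within 10% of the length of SER3 and SER33. After a correction for length the log2 folds were 0.025 for SRG1, 0.12 for SER3 and −7.3e-04 for SER33, all uncalled.

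**Figure D3:**
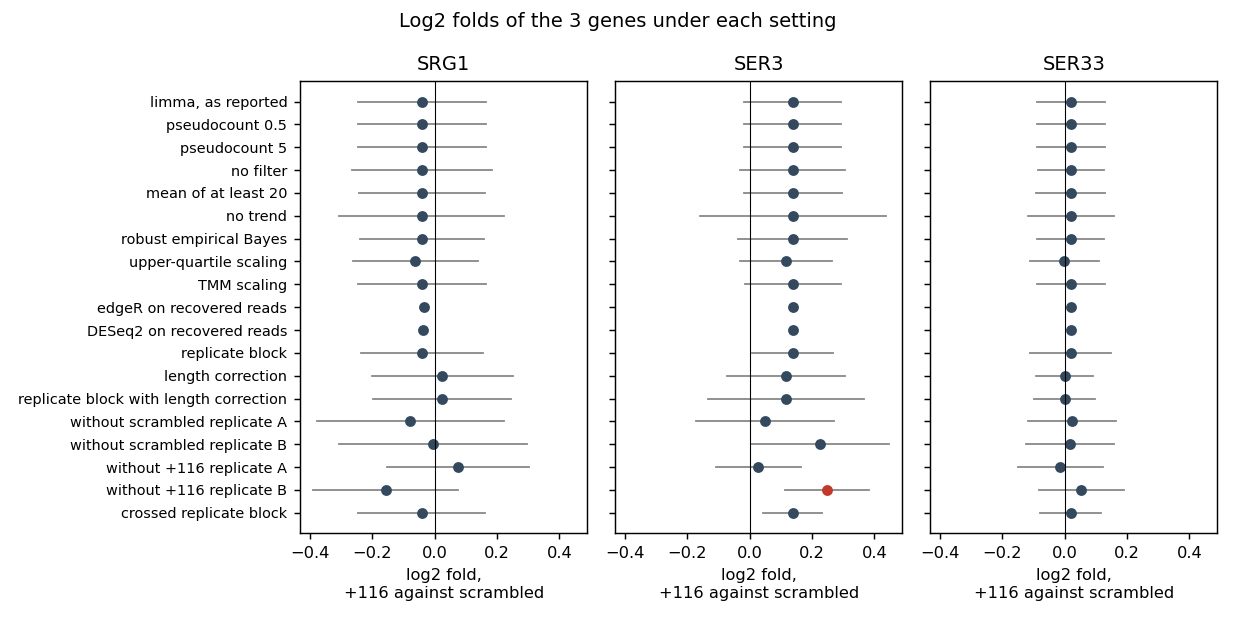
Log2 folds of SRG1, SER3 and SER33, +116 against scrambled, as reported (top) and under each of 18 alternative settings, with 95% limma intervals where the tool gives them and red for an adjusted p of at most 0.05. SER3 without +116 B is the only red point, at 0.25.

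Per length, SER3 was the most abundant of the 3 in every library and SRG1 the least. Averaged over the libraries, SER3 had 3617 normalized reads per kb, SER33 3127 and SRG1 821.5, where the median of 5891 tested genes with a length was 1420. SER3 thus stood above 76.2% of these genes, SER33 above 73.0% and SRG1 above 31.0%. With the 77 shared bases left out of both lengths, SRG1 had 867.0 to 1018 normalized reads per kb in the 4 libraries and SER3 3420 to 4316, so their order was the same. SER3 and SER33, of equal length, were close to each other. Of the reads of the pair, SER3 took 51.0% in scrambled A (exact 95% binomial interval 49.98% to 51.96%), 54.1% in scrambled B (53.0% to 55.1%), 55.9% in +116 A (54.9% to 56.8%) and 53.2% in +116 B (52.2% to 54.3%). The interval reached below equal shares in scrambled A alone.

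Within a library, the ratio of SER3 to SRG1 does not depend on the scaling. It was 10.2 in scrambled A, 11.0 in scrambled B, 14 in +116 A and 10.2 in +116 B, as a ratio of normalized reads. The +116 A library stood above the other 3, and +116 B fell between the scrambled libraries. The scrambled mean of the log2 ratio was 3.40 ± 0.0721 and the +116 mean 3.58 ± 0.320 (SD, n = 2), which differ by 0.18 (two-sided exact permutation test, p = 0.667). With 2 against 2 libraries this test cannot go below 0.333. Without +116 A the difference was −0.048. The log2 ratio of SER3 to SER33 was 0.056 and 0.24 in the scrambled libraries and 0.34 and 0.19 in +116 A and B, a difference of 0.12 between the guides (two-sided exact permutation test, p = 0.667).

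The other genes of serine and glycine synthesis were not called either. Of the 8 listed genes, SER3 and SER33 included, 0 were called by limma, edgeR or DESeq2. Limma called 0.844% and edgeR 2.64% of all tested genes, and DESeq2 5.56% of the 3235 genes it adjusted. At such shares a list of 8 would rarely hold a called gene. At an unadjusted limma p under 0.05, 1 was higher and 0 lower, against 11.5% and 10.3% of all tested genes. The median log2 fold was 0.044, where the median of all tested genes was 0.0013. SER1, which encodes the phosphoserine aminotransferase of the next step, had a log2 fold of 0.071 (SE 0.062), and SER2, the phosphatase gene of the last step, −0.096 (SE 0.058). SHM2, the cytosolic serine hydroxymethyltransferase gene, which links serine with glycine and one-carbon units, had 0.15 (limma adjusted p = 0.222), and GLY1, the threonine aldolase gene for glycine, 0.058.

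In +116 A most of these genes were at their highest, as SER3 was. This library was the highest of the 4 for 7 of the 8 genes, against 23.7% of all tested genes. For some of them the lead was small. AGX1 had 267.0 normalized reads in +116 A and 265.2 in scrambled B, and GLY1 had 21849 in +116 A and 21395 in +116 B. SHM1 had 12652 in +116 A and 12307 in scrambled A. SHM2 had 34057 and 32886 normalized reads in scrambled A and B, 39984 in +116 A and 34321 in +116 B. SER1 likewise had 20770 in +116 A and 18065 to 18613 in the other libraries. SER2 was the exception, with its highest value (3540) in scrambled B.

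Among 14 genes that use serine and glycine, 0 were called by limma and by edgeR, and 1, ADE3, by DESeq2 (DESeq2 adjusted p = 0.0269). Limma called 0.844% and edgeR 2.64% of all tested genes, and DESeq2 5.56% of the 3235 genes it adjusted. CHA1 had no DESeq2 adjusted p and so could not be called by it. By limma 3 were higher and 1 lower at an unadjusted p under 0.05, against 11.5% and 10.3% of all tested genes. Their median log2 fold was 0.011. The genes with the lowest p were ADE3, the cytosolic one-carbon synthase gene (log2 fold 0.21, limma adjusted p = 0.0772), GCV2 and GCV1, of the glycine cleavage complex (0.21 and 0.20), and CHA1 (−0.25, limma adjusted p = 0.206). CHA1 shares the activator Cha4 with SRG1 and, like SRG1, was lowest in +116 A. That library was lowest for 6 of the 14 genes of this list, against 22.8% of all tested genes. For another 6 of the 14 it was highest, against 23.7% of all tested genes. CHA1 had 1509 and 1443 normalized reads in the scrambled libraries, 1061 in +116 A and 1458 in +116 B. The other 3 libraries lay between 1443 and 1509, and the groups overlapped.

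Of the 4 genes of the glycine cleavage complex, 3 stood highest in +116 A by a clear margin. GCV1 had 7823 and 7820 normalized reads in scrambled A and B, 9861 in +116 A and 8178 in +116 B, and GCV2 and GCV3 had 14486 and 13621 in +116 A against at most 12176 and 11651 elsewhere. LPD1, whose product the complex shares with other dehydrogenases, was nearly level, at 12625, 12673, 12852 and 12561 normalized reads in the same order of libraries (log2 fold 0.0064).

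The size of these differences depended on which +116 library was used. Without +116 B the log2 folds were −0.48 for CHA1, 0.33 for GCV1, 0.33 for GCV2, 0.27 for GCV3, 0.28 for ADE3 and 0.26 for SHM2, and without +116 A they were −0.017, 0.064, 0.080, −0.051, 0.14 and 0.036. These values are a description, since the genes were named for a low p in the same libraries or for their role, and all stood at an extreme in +116 A. Each of these fits has a lone +116 library, so calls of the listed genes in them are not set against each other here. SRG1 itself was not called under any setting and had a log2 fold of −0.16 without +116 B. Its Poisson interval in +116 A, 372.2 to 452.7, covered the 446.8 of scrambled A. That interval did not cover the 470.0 of scrambled B or the 482.7 of +116 B. What set +116 A apart was not tested.

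**Figure D4:**
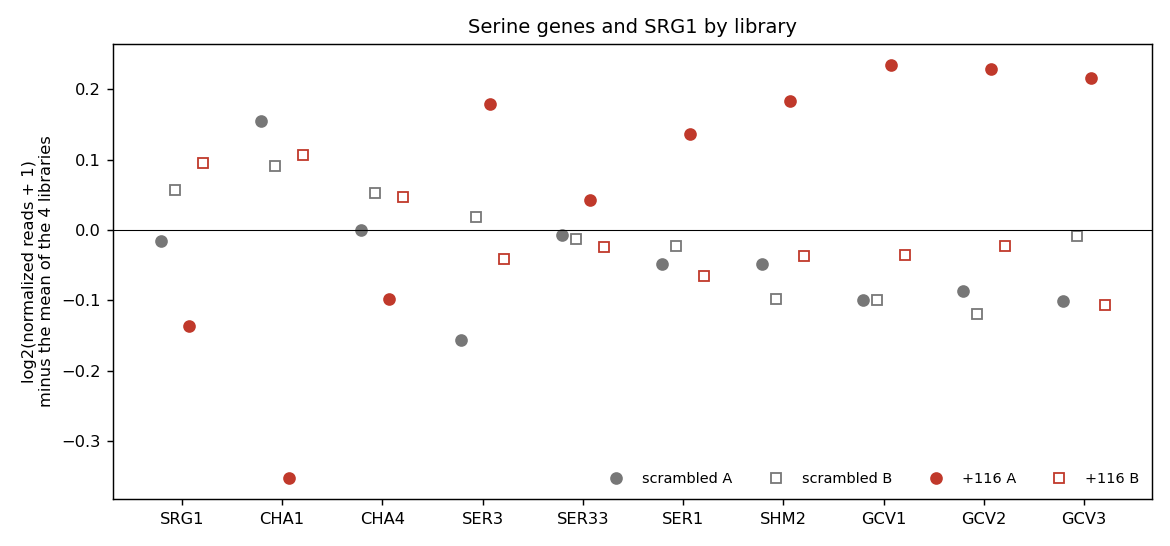
Log2(normalized reads + 1) of SRG1, CHA1, their activator gene CHA4, SER3, SER33 and 5 further genes of serine and glycine metabolism in each library, minus the mean of the 4 libraries for that gene. The +116 A library (filled red circles) is lowest for SRG1, CHA1 and CHA4 and highest for the other 7 genes, whereas +116 B (open red squares) lies nearer to the scrambled libraries. The genes shown are a selection that leaves out SER2 and LPD1, among others. Over all 14 listed genes of serine and glycine use, +116 A was highest for 6 and lowest for 6. Over the 14 listed genes of SRG1 activation, which include CHA4, it was highest for 5 and lowest for 2.

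Genes for the activation of SRG1 did not differ between the guides beyond the threshold. Of 14 genes for Cha4, the TATA-binding protein and subunits of SAGA and Swi/Snf, 0 were called by limma or edgeR. These tests called 0.844% and 2.64% of all tested genes. DESeq2 called 0 too, against 5.56% of the 3235 genes it adjusted. It gave no adjusted p for some of the list, CHA4 and SNF11 included, so these could not be called. At an unadjusted limma p under 0.05, 4 were higher and 2 lower (11.5% and 10.3% of all tested genes), and the median log2 fold of the list was 0.036. CHA4 had 1235 and 1281 normalized reads in the scrambled libraries and 1154 and 1276 in +116 A and B (log2 fold −0.052, limma adjusted p = 0.689). Of the 14 genes, +116 A was lowest for 2 and highest for 5, against 22.8% and 23.7% of all tested genes. SNF5 and SWI3, of Swi/Snf, had log2 folds of 0.18 and 0.13 (limma adjusted p = 0.113 and 0.214), while SNF11, a small subunit of the same complex, had −0.18 (0.156) and SPT15, the gene of the TATA-binding protein, −0.13 (0.150).

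Factors that act on chromatin during elongation, among them those known to be needed for SER3 repression, numbered 14. Limma called 0 of them, against 0.844% of all tested genes. At an unadjusted limma p under 0.05, 3 were higher and 2 lower, against 11.5% and 10.3% of all tested genes. The median log2 fold was 0.059. SPT5, an elongation factor gene, had 5192 and 4623 normalized reads with the scrambled guide and 5635 and 6008 with +116. The groups did not overlap, as for 53.5% of all tested genes. Its log2 fold of 0.25 had a limma adjusted p of 0.0580. EdgeR (adjusted p = 0.0449) and DESeq2 (0.0278) each called it, as the 1 member of the list that they called. EdgeR called 2.64% of all genes and DESeq2 5.56% of the 3235 genes it adjusted. NHP6A and NHP6B had no DESeq2 adjusted p and so could not be called by it. With a lone +116 library, the log2 fold of SPT5 was 0.29 without +116 A and 0.20 without +116 B. SPT6 and SPT16, histone chaperone genes whose mutants lose SER3 repression, had 0.18 (limma adjusted p = 0.095) and 0.12 (0.190). The genes of the short DNA-bending proteins that work with Spt16, NHP6A and NHP6B, had −0.23 (limma adjusted p = 0.129) and −0.27 (0.0820). Without +116 A they had −0.35 and −0.33, and without +116 B −0.11 and −0.22. SPT5, SPT6 and SPT16, of 3108 to 4356 bp, were thus above 0, and NHP6A and NHP6B, of 282 and 300 bp, below it, in the order of the length difference across the table. After the length correction the log2 folds were 0.15 for SPT5 (limma adjusted p = 0.246), 0.064 for SPT6, 0.019 for SPT16, −0.14 for NHP6A and −0.19 for NHP6B, with none called.

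Other yeast genes or transcripts known for control by noncoding transcription were listed for comparison. Of 12, 11 were in the table and 9 passed the filter on low values, with a median log2 fold of 0.10. Limma and edgeR called 0 of them, against 0.844% and 2.64% of all tested genes. DESeq2 called 0 too, against 5.56% of the 3235 genes it adjusted, but it gave no adjusted p for some, ICR1 and FLO11 included. At an unadjusted limma p under 0.05, 2 were higher and 0 lower, against 11.5% and 10.3% of all tested genes. ICR1, the noncoding RNA that crosses the FLO11 promoter, had 554.4 and 500.7 normalized reads with the scrambled guide and 571.9 and 597.4 with +116 (log2 fold 0.15, limma adjusted p = 0.312), and FLO11, the flocculin gene that it represses, had a log2 fold of 0.20 (0.221). URA2, a pyrimidine synthesis gene controlled through its choice of start site, had 0.23 (limma adjusted p = 0.148). It had 0.060 without scrambled A, 0.41 without scrambled B and 0.28 without +116 B. After the length correction ICR1 had 0.048, FLO11 0.086 and URA2 0.11. PWR1 and IME4 were the members below the filter, at 0.904 to 5.48 and 0.904 to 2.19 normalized reads.

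The genes beside SRG1 with SER3 and beside SER33, 3 on either side in the R64 order, were not called by limma or edgeR (0 of 12). These tests called 0.844% and 2.64% of all tested genes. DESeq2 called 0 too, against 5.56% of the 3235 genes it adjusted, but not all of the 12 had an adjusted p (RCI37 had none). At an unadjusted limma p under 0.05, 0 were higher and 1 lower, against 11.5% and 10.3% of all tested genes. AIM9, the last gene before SRG1 on the same strand, had 4324 and 4246 normalized reads with the scrambled guide and 4411 and 4503 with +116 (log2 fold 0.057, limma adjusted p = 0.539). UTP7, a ribosome biogenesis gene that converges on SER3, had a log2 fold of −0.064 (0.495), and GET2 next to it, of the tail-anchored protein pathway, −0.056 (0.551). Around SER33 the lowest p-values were those of SEC28, a coatomer gene (−0.12, limma adjusted p = 0.223), and RCI37 (0.13, 0.284). The widest value of the 12 was the log2 fold of −0.86 of YER078W-A, a reading frame with 2.01 to 8.14 normalized reads.

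**Figure D5:**
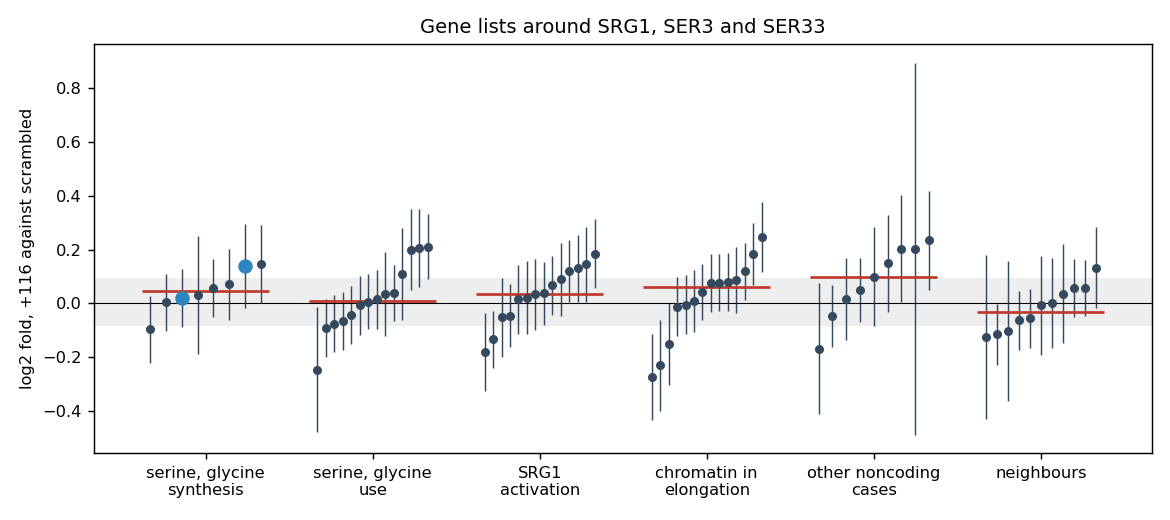
Log2 folds, +116 against scrambled, with 95% limma intervals, of the genes of 5 lists and of the neighbours, with list medians in red, SER3 and SER33 in blue and the middle 50% of all tested genes as a grey band. No gene shown was called by limma, and YER078W-A is left off for scale but counted in the median of the neighbours.

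The tested genes most like each member over the 4 libraries were taken by Pearson's r of log2(value + 1), among genes with a mean of at least 100. For SRG1 they were EUC1, OTU1 and YDR261W-B, for SER3 JID1, YJL213W and AAD10, and for SER33 NRK1, YEA6 and HEL1, with r from 0.997 (HEL1) to above 0.999 (JID1). Over 4 libraries such values are common: 92 of 5527 genes had an r of at least 0.95 with SRG1, 96 with SER3 and 93 with SER33. None of the 3 members was among the 3 genes most like another.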

How the data were processed

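RNA was sequenced from 4 yeast libraries, made with a stranded mRNA kit per the labels' protocols. The authors deposited 1 table of normalized counts, a signal that is never negative. Picard 1.84, Bowtie2, TopHat, TopHat2 2.0.8, Trimmomatic 0.30, bcl2fastq 1.8.4 and DESeq2 are listed with no role in the submitters' processing notes, and the build, annotation and read counter are not stated there or in the labels. In each column 100% of the deposited values were whole multiples of 1 step, within 1e-06 of a read, so whole reads were recovered. Rows were matched to R64 of RefSeq, 6048 by locus tag and 114 by name; 964 did not match.

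Genes with a mean of at least 5 entered a limma 3.58.1 fit (R 4.3.3) on log2(value + 1) with trended variances, a scale that understates the change of low genes; tests were two-sided. EdgeR 4.0.16 and DESeq2 1.42.0 were run on the recovered reads as alternatives, which called 166 and 180 genes. The method was tested on simulated data. Named genes were the members, the neighbours, up to 4 genes of the lowest p in each of 5 lists, genes whose role is described (GCV3, SPT16 and CHA4 among them), and the 3 genes most like each member. The members and lists were chosen with earlier results of these data known. Libraries of 1 group differed by more than counting noise (chi-square per gene of 10.2 and 13.4), so none was treated as 1 library deposited again. This does not show separate cultures.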

Additional observations from a re-analysis of the deposited data

How the results depend on the processing

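Of the 18 alternatives, 17 left SER3 uncalled and above 0, and without +116 B it was called; its log2 folds without 1 library ran from 0.027 to 0.25. SRG1 and SER33 were called in none. SRG1 turned to 0.025 with the length correction, with or without the replicate block, and ran from −0.16 to 0.075 without 1 library. SER33 turned to −0.0010 with upper-quartile scaling and −7.3e-04 with the length correction, with or without the block, and ran from −0.014 to 0.053 without 1 library. The log2 difference in the ratio of SER3 to SRG1 ran from −0.048 to 0.40 without 1 library. AIM9 turned to −0.0016 with the length correction, with or without the block. Without 1 library SER1 ran from −0.030 to 0.17, GCV3 from −0.051 to 0.27 and CHA4 from −0.12 to 0.021.

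The count of called genes, 53 as reported, was 7 with no filter, 108 with a mean of at least 20, 1 without a trend, 410 with robust empirical Bayes, 127 with upper-quartile and 88 with TMM scaling, 166 with edgeR, 180 with DESeq2, 6 with the length correction and 0 to 279 without 1 library (1 without scrambled A, 0 without scrambled B, 212 without +116 A and 279 without +116 B). The replicate block, with A and B as a term, gave 258 genes, and 0 with the length correction too. The letters are not said to pair the libraries, and the deviations of scrambled A and +116 A from their group means correlated at −0.155 over 5528 genes. A crossed replicate block, added after this was seen, gave 357 genes.

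Listed genes called, 0 as reported, were 3 with the block and 1 with robust empirical Bayes, DESeq2 or the crossed block for serine and glycine use, and 0 to 5 without 1 library. They were 0 to 2 for synthesis without 1 library and 1 for SRG1 activation with robust empirical Bayes. For chromatin they were 4 with robust empirical Bayes, 1 with edgeR, 1 with DESeq2, 2 with the block, 3 with the crossed block and 0 to 3 without 1 library, and for the other noncoding cases 1 with either block and 0 to 1 without 1 library. The cause of these shifts was not tested.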
